A study of Drosophila melanogaster with 3 samples.

Results

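The 10 planar cell polarity genes examined here were fz, dsh, Vang, stan, pk, dgo, mwh, ds, ft and fj, among 13945 protein-coding genes on the 6 chromosome arms used. They were taken by name from the pathway and not by any measured value, though with earlier results of these data known. The measurement was chromatin immunoprecipitation and sequencing of Vrille, a bZIP transcription factor that represses Clock in the circadian oscillator and responds to ecdysone, in whole white prepupae of Drosophila melanogaster. The animals came from 1 transgenic line that stably expressed vri with GFP at its C terminus, males and females were pooled, and the antibody was directed against GFP. There were 3 biological replicates in 1 group, and all of them carried the fusion, so no comparison between conditions was possible. No mock library or animals without the tag were analysed here. An entry of the authors' dm6 peak lists counted for a gene when its summit lay in the gene or within 1 kb of it. The authors' list that passed their threshold on reproducibility held 9264 peaks, called optimal peaks, of which 22 had their summit at these genes. Those 22 lay at 6 of the 10 genes.

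Planar cell polarity is the alignment of cells within the plane of a sheet, and in flies it sets the direction of wing hairs, bristles and eye facets. In the core module, Frizzled (fz), Dishevelled (dsh) and Diego (dgo) gather on one side of each cell, and Van Gogh (Vang) and Prickle (pk) on the other, while the cadherin Flamingo (stan) bridges neighbouring cells. In the second module the giant cadherins Fat (ft) and Dachsous (ds) bind each other between cells, and the Golgi kinase Four-jointed (fj) modifies both. Multiple wing hairs (mwh) acts downstream of the core and restrains actin so that a cell makes a single hair.

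The summits were spread very unevenly over the genes. fz and ds held 8 each, together 16 of the 22 (72.7%), pk held 3, and stan, Vang and ft held 1 each. None was found at dsh, dgo, mwh or fj. Of the 22 summits, 19 lay inside the gene itself and 14 lay more than 20 kb from its nearest start site. All 14 were at fz and ds, which are both between 70 and 100 kb long. The share at such distances is not given here for other genes, so it cannot be called particular to these. Introns away from any start site held 77.3% of the 22 summits. The same share was 36.1% of all optimal peaks and 63.9% of those at genes of at least 20 kb, and no test was made. Only ds and ft had a summit within 1 kb of a start site of their own. Because whole animals were used, binding in fewer cells and weaker binding per cell cannot be told apart.

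**Figure D1:**
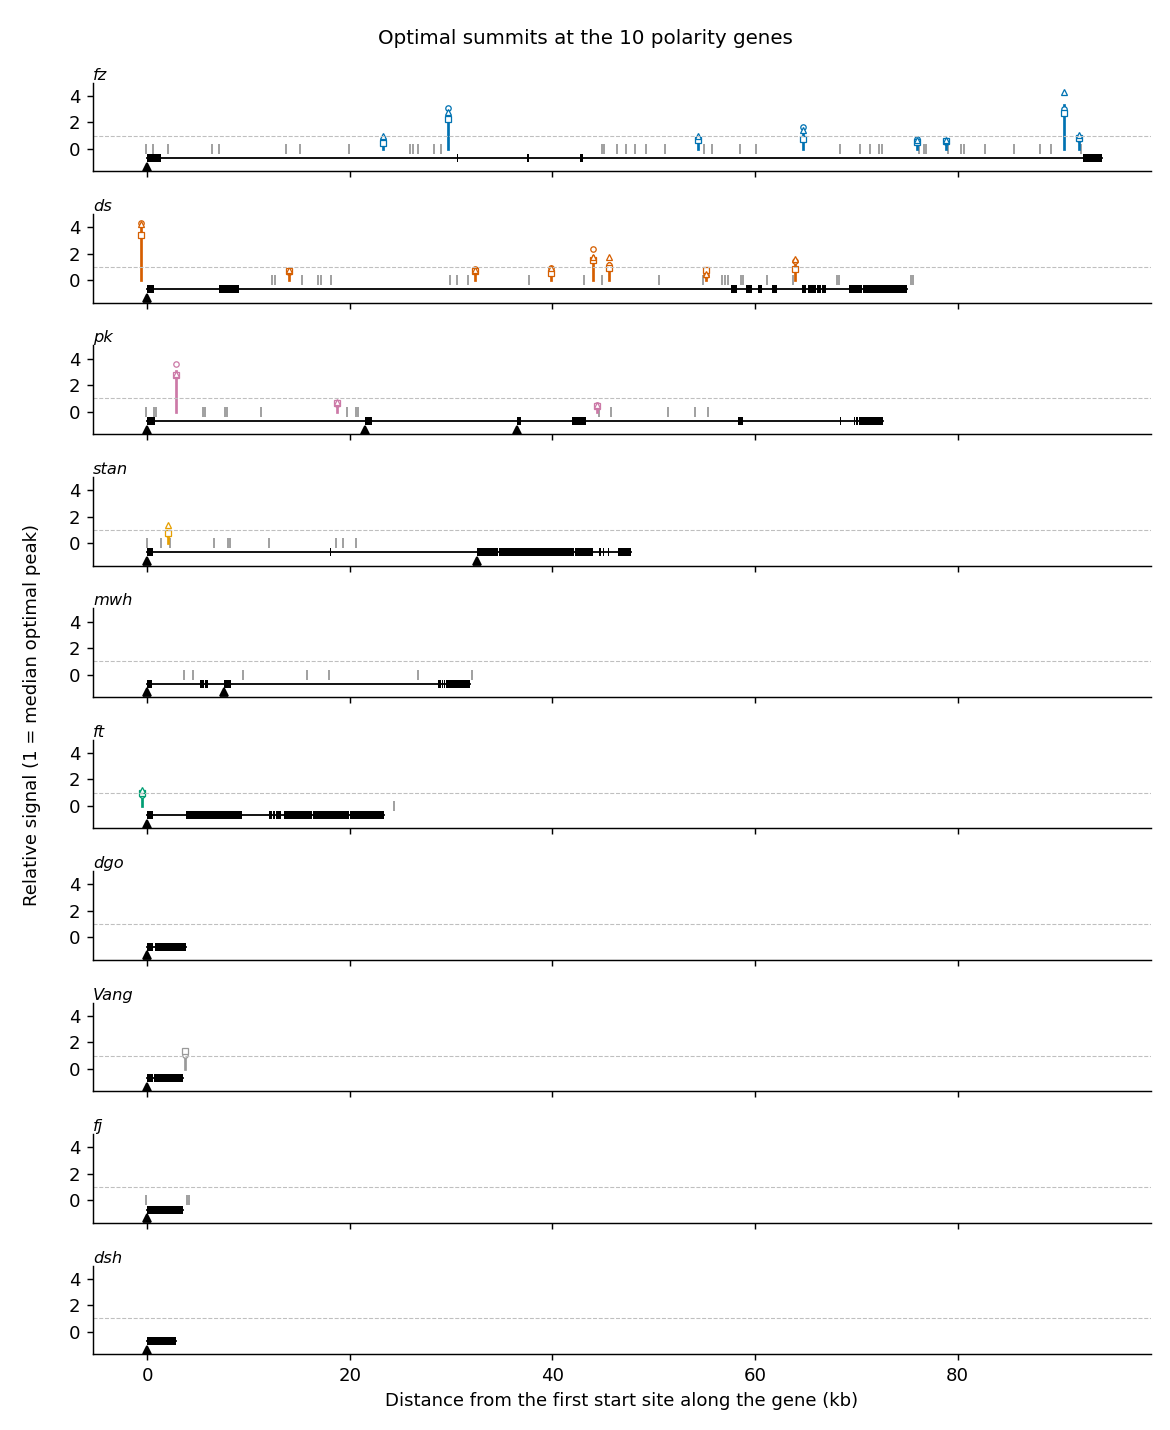
Maps of the 10 genes, each drawn 5′ to 3′ from its first start site (kb), with exons as black boxes, start sites as black triangles and entries of the pooled list that were not optimal as grey ticks. Coloured stems show the mean relative signal of each optimal summit (1 is the median optimal peak) and open circles, squares and triangles show replicates 1, 2 and 3. fz and ds carry 8 stems each, the tallest stem stands upstream of ds, and dsh and dgo carry neither stems nor ticks.

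The count of genes was read against all protein-coding genes. A summit lay in or within 1 kb of 33.9% of the 13945 genes, against 6 of these 10. Gene length bears on this count, since longer genes offer more sequence. Among genes of at least 20 kb the share was 64.3%, and 5 of the 6 polarity genes of that length (fz, pk, stan, ds and ft, but not mwh) held a summit. Among genes under 5 kb the share was 26.5%, and 1 of the 4 short polarity genes (Vang, but not dsh, dgo or fj) held one. With 6 and 4 genes, shares of 5 of 6 and 1 of 4 cannot be set apart from those backgrounds. A start site with a summit within 1 kb was found for 27.5% of all genes and 45.7% of genes of at least 20 kb, and for 2 of the 10 polarity genes, both among the 6 long ones.

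**Figure D2:**
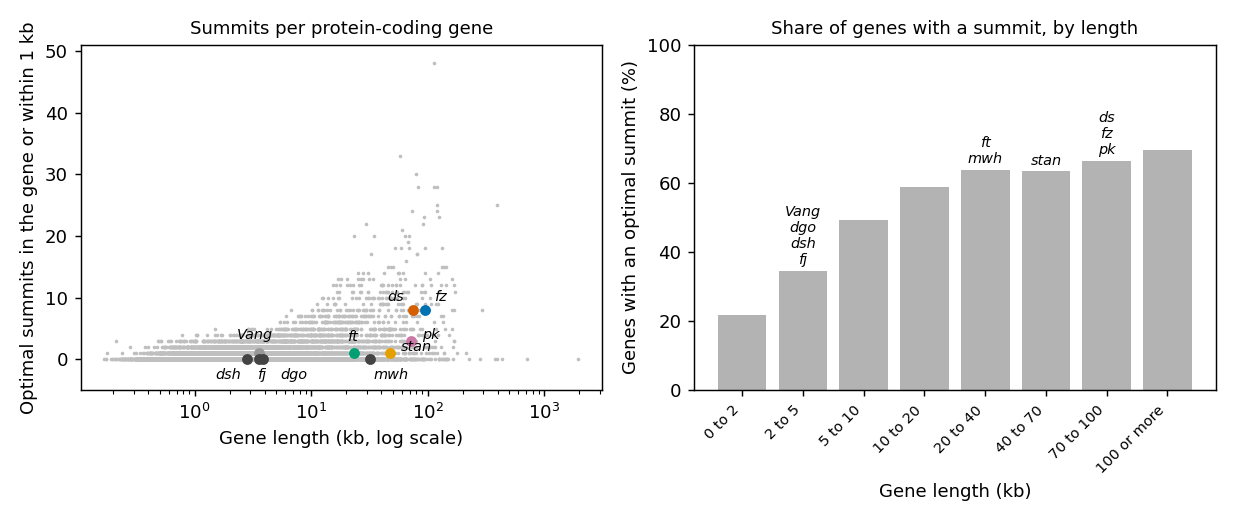
Left, gene length (kb, log scale) against the number of optimal summits for all 13945 protein-coding genes (grey) and the 10 polarity genes (coloured and named, dark grey where the count is 0). Right, percentage of genes in each length class with at least 1 summit, with the polarity genes of that class written above the bar. The share rises from 21.7% of genes under 2 kb to 69.5% of genes of 100 kb or more.

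Numbers of summits were also compared within a class of length. The 92 genes between 70 and 100 kb had a median of 3 summits with an upper quartile of 8, and 24 of them (26.1%) held 8 or more. fz and ds, with 8 summits each, stood at the upper quartile of this class, and pk, with 3, stood at its median. stan, with 1 summit in 47.8 kb, was below the median of 2.00 for genes of 40 to 70 kb, and ft, with 1 in 23.4 kb, matched the median of 1.00 for genes of 20 to 40 kb. Summits numbered 1.04 per 10 kb searched at ds, 0.831 at fz, 0.402 at pk and 0.201 at stan. Over the 10 genes together there were 0.581 per 10 kb, against 0.670 over all genes of at least 20 kb and 0.912 over all protein-coding genes, with shared summits counted for each gene.

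ds, which encodes the cadherin Dachsous, held the highest peak of the set. The gene spans 640013 to 714983 on the minus strand of 2L and has 1 annotated start site. The peak (715371 to 715738) had its summit 586 bp upstream of that start and ranked 251 of the 9264. The 3′ end of the noncoding gene lncRNA:CR44988 lies 262 bp from the summit, nearer than the ds start, but the start of that gene is 5001 bp away. The ds start is thus the nearest annotated start site, though position alone cannot assign the peak to ds over that gene. Signal of a peak was divided, within each replicate, by the median of that replicate over the optimal peaks, so that 1 is the median optimal peak. This relative signal was 4.35 in replicate 1, 3.44 in replicate 2 and 4.22 in replicate 3, a mean of 4.00 ± 0.495 (SD, n = 3). It was the highest entry at ds in every replicate, and its rank there was 227, 370 and 242.

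The other 7 summits of ds were all in introns, 6 of them in the second intron of 48.5 kb and 1 in the sixth intron of 2.49 kb. The strongest of these, 44.0 kb into the gene, had relative signals of 2.32, 1.51 and 1.74 in replicates 1, 2 and 3 (1.86 ± 0.418, n = 3). A second summit lay 1593 bp from it, with 1.16, 0.914 and 1.73 (1.27 ± 0.421, n = 3), and another 4170 bp to the other side, with 0.951, 0.555 and 0.885 (0.797 ± 0.212, n = 3). These 3 neighbours were above the median optimal peak in all, in some and in none of the replicates, respectively. The summit in the sixth intron had 1.42, 0.856 and 1.60 (1.29 ± 0.387, n = 3). The remaining 3 had means from 0.546 to 0.800, below the median optimal peak in each replicate.

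ft, which encodes the binding partner of Dachsous, held 1 summit, and like that of ds it lay just upstream of the only annotated start. The gene spans 4198404 to 4221796 on the minus strand of 2L, and the peak (4222087 to 4222526) had its summit 511 bp upstream. Its relative signal was 0.827, 0.953 and 1.22 in replicates 1, 2 and 3 (1.00 ± 0.201, n = 3), at rank 4027. The ft peak was thus at the level of the median optimal peak, and below the ds peak in every replicate. No further entry of the pooled list lay inside ft, and the single one within 1 kb of its 3′ end had a pooled relative signal of 0.403. That entry also lay within 1 kb of a start of another protein-coding gene.

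fz, the gene of the Frizzled receptor, spans 14274343 to 14368639 on 3L and has 1 start site, near which no summit lay (the nearest was 1714 bp away). Its 8 summits were in the first intron of 29.2 kb, with 2, and in the fourth and last intron of 49.4 kb, with 6. The highest (14364720 to 14365086, rank 383) was 90.6 kb from the start and 3746 bp from the end of the gene, with relative signals of 2.97, 2.73 and 4.30 in replicates 1, 2 and 3 (3.33 ± 0.844, n = 3). The next (14303908 to 14304211, rank 597) was near the end of the first intron, with 3.07, 2.27 and 2.81 (2.72 ± 0.412, n = 3). Which of these was the higher differed between replicates: the first-intron peak led in replicate 1 and the last-intron peak in replicates 2 and 3.

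The other summits of fz were weaker. The one 64.7 kb from the start had 1.64, 0.759 and 1.40 (1.27 ± 0.455, n = 3), so that replicate 2 alone was under the median optimal peak. The other 5 had means from 0.587 to 0.870. One of these, 54.3 kb from the start (0.736 ± 0.174, n = 3), lay 669 bp upstream of CG13482, a gene nested in the last intron of fz, and cannot be assigned to either gene. Another, with 0.757, 0.839 and 1.02 (0.870 ± 0.132, n = 3), was 1436 bp from the highest peak.

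Windows of 101 bp around 6 of these summits are shown because they carry the highest signal at ds, ft and fz, together with the ds intron summit nearest to the highest one there. They were read from the RefSeq copy of the dm6 assembly (Release 6), plus strand, 5′ to 3′. Capitals mark a stretch of 8 bases that differs at no more than 1 base from the VP box, the site bound by Vrille and PDP1 (TTACGTAA or TTATGTAA, either strand). None of the 6 holds an exact VP box. The ds upstream window holds a match with 1 mismatch, and 23.4% of all optimal windows hold a match with at most 1 mismatch. The only exact VP box among the 22 summits, at pk, is not in a window shown here.
ds upstream of its start, chr2L:715519-715619: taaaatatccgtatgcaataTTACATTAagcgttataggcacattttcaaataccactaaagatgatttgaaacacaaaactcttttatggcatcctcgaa
ds intron, highest, chr2L:670904-671004: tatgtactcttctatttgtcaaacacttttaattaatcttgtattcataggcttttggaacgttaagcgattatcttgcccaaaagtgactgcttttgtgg
ds intron, nearest to the highest, chr2L:669311-669411: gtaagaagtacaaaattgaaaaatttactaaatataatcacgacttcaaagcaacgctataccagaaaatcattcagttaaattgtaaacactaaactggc
ft upstream of its start, chr2L:4222257-4222357: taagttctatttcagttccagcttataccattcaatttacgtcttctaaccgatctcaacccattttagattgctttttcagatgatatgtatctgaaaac
fz first intron, highest, chr3L:14304035-14304135: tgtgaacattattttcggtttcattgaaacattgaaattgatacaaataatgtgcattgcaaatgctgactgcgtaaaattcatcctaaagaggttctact
fz last intron, highest, chr3L:14364843-14364943: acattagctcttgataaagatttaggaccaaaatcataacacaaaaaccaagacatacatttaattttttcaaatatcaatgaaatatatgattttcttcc

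pk, which encodes the LIM-domain protein Prickle, had a single strong peak among its 3. The gene spans 7150703 to 7223378 on 2R and has 3 start sites, one for each annotated transcript. The strong peak (7153332 to 7153780, rank 500) had relative signals of 3.58, 2.73 and 2.87 in replicates 1, 2 and 3 (3.06 ± 0.454, n = 3), and it was the highest entry at pk in each replicate. Its summit lay 2860 bp downstream of the first start site of pk, in an intron that also holds serpin genes. It was 79 bp downstream of the start of Spn43Ab, inside that gene, and 175 bp from the nearest end of Spn43Ad, so it cannot be assigned to pk over these nested genes.

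The other summits of pk were weak. One lay 2677 bp upstream of the second start site, with 0.543, 0.622 and 0.698 (0.621 ± 0.0776, n = 3). The other lay 7863 bp downstream of the third start, with 0.535, 0.428 and 0.480 (0.481 ± 0.0536, n = 3), at rank 8936 of 9264, close to the authors' threshold, and it was not among the 9264 highest entries of any replicate. No start site of pk had a summit within 1 kb.

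stan, the gene of the cadherin Flamingo, spans 10673345 to 10721138 on 2R with 2 start sites. Its 1 summit (10675216 to 10675655, rank 4253) lay in the first intron, 2091 bp downstream of the first start. The relative signal was 0.661, 0.758 and 1.37 in replicates 1, 2 and 3 (0.929 ± 0.383, n = 3), so the replicates fell on both sides of the median optimal peak. At the first start itself, 37 bp downstream, the pooled list held an entry that was not optimal, with 0.351, 0.335 and 0.378 (0.355 ± 0.0215, n = 3). The second start, shared by 2 of 7 transcripts, was 25239 bp from the nearest optimal summit.

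Vang, which encodes a membrane protein that recruits Prickle, spans 9103238 to 9106796 on 2R. Its summit lay 192 bp past the 3′ end of the gene and 3750 bp from its start (9106768 to 9107207, rank 3775). It was also 163 bp from the gene body of Pgm2a, and so lies between both genes. The relative signal was 1.08 in replicate 1 and 1.33 in replicate 2 (1.20 ± 0.172, n = 2), and replicate 3 had no overlapping entry among its 30000. This was the only one of the 22 peaks not seen in every replicate. Vang was therefore lost from the count of genes whenever support from replicate 3 was required, which left 5 of 10.

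The other 4 genes held no optimal summit. At dsh, the gene of the adaptor that relays the Frizzled signal, and at dgo, which encodes the ankyrin-repeat protein Diego, no list held any entry, pooled and replicate lists included. The nearest optimal summit was 4.36 kb from dsh and 7.65 kb from dgo. Of all genes under 5 kb, 40.4% had at least 1 entry of the pooled list in or within 1 kb of them, so lacking one is common at this length.

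mwh, whose product restrains hair formation, and fj, which encodes the kinase Four-jointed, held entries below the threshold. mwh, a gene of 31.9 kb on 3L, had 7 pooled entries, of which the highest had 0.567, 0.310 and 0.356 in replicates 1, 2 and 3 (0.411 ± 0.137, n = 3) at rank 10485 of the pooled list. This entry was 19065 bp from the nearest mwh start but within 1 kb of a start of another protein-coding gene, so it cannot be assigned to mwh. The highest entry at mwh was a different one in each replicate, at 1227486 in replicate 1, 1205252 in replicate 2 and 1210280 in replicate 3, with relative signals of 0.567, 0.701 and 0.363. fj, a gene of 3.55 kb, had 3 pooled entries, the highest at 0.169, 0.246 and 0.354 (0.256 ± 0.0931, n = 3). That entry was 3908 bp from the fj start, past the 3′ end of the gene. In replicate 3 the highest entry at fj was another, 52 bp upstream of the start, with 0.378. By comparison, the lowest optimal peak in the genome had a pooled relative signal of 0.552, and the highest entries of mwh and fj had 0.486 and 0.270. mwh is one of the genes of at least 20 kb of which 64.3% held a summit.

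**Figure D3:**
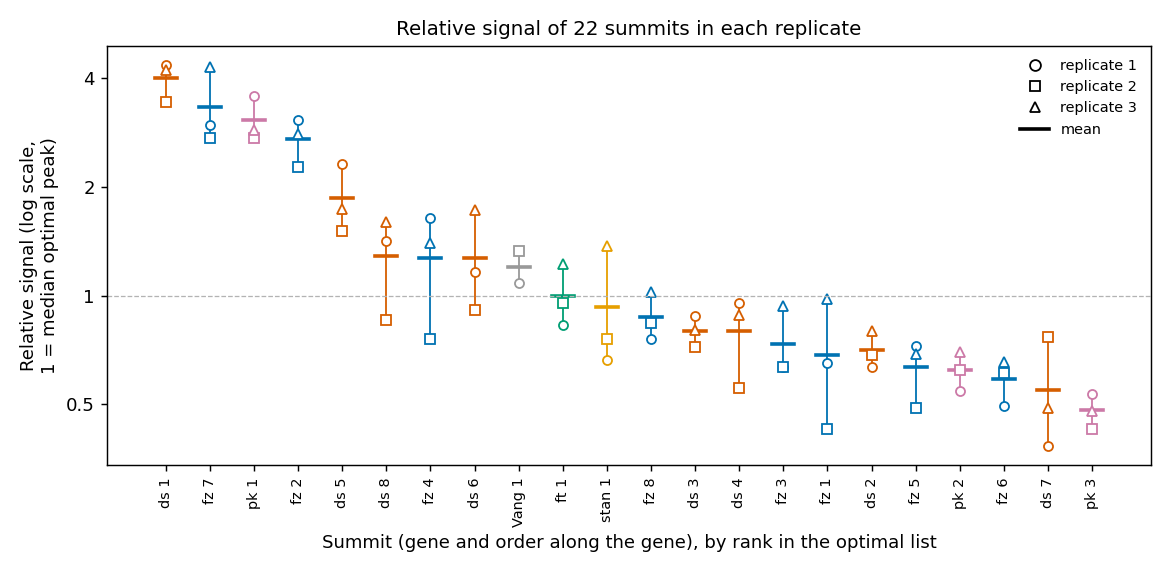
Relative signal (log scale, 1 is the median optimal peak) of the 22 summits in replicates 1, 2 and 3, ordered by rank in the optimal list and coloured by gene. Symbols are single replicates, thin lines join the lowest and highest of them and thick bars are means. The highest 4 summits belong to ds, fz and pk and lie above 2 in every replicate.

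Across the 22 summits the mean relative signal ran from 0.481 to 4.00 with a median of 0.900, and 10 lay above 1. Over all 9264 optimal peaks the median of the same means was 0.986 and 49.1% lay above 1, and at genes of at least 20 kb the median was 0.940 over 3501 peaks. The 17 summits in introns and away from any start site had a median of 0.800, against 0.930 for all 3346 such peaks. The medians of the polarity genes were thus slightly below those of the other sets, within ranges that overlap widely, and no test was made.

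The replicates ranked these summits alike. The optimal list was selected for reproducibility between these same replicates, so part of this likeness follows from the selection. The Spearman coefficient was 0.778 between replicates 1 and 2 (n = 22), 0.900 between 1 and 3 and 0.830 between 2 and 3 (n = 21 each), given as a description, since summits share their libraries. The same values over all optimal peaks were 0.789, 0.789 and 0.696. The median coefficient of variation over replicates was 20.1% for the 22 summits and 21.6% for all optimal peaks. All 3 replicates were above 1 at 5 summits (those of ds upstream of the start and 44.0 kb into the gene, the pair of highest summits of fz, and the highest of pk), below 1 at 10, and mixed or incomplete at 7. By their means, 45.5% of the 22 summits and 49.1% of all optimal peaks were above 1. Of the 21 summits seen in every replicate, replicate 2 gave the lowest relative signal at 13, replicate 1 at 8 and replicate 3 at 0. Neither this count nor the split around 1 is given here for all optimal peaks, so neither can be called particular to these genes.

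The genes were also counted in the lists of single replicates, with the 9264 highest entries of each. In replicate 1, 7 of 10 polarity genes held such a summit, against 36.4% of all genes. Replicate 2 gave 7 of 10 against 34.3%, and replicate 3 gave 5 of 10 against 34.5%. mwh accounts for the additional gene in replicates 1 and 2, and Vang is missing in replicate 3. The number of entries of this kind at the 10 genes was 24, 25 and 23.

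Some summits belong to more than 1 gene. Of the 22, 3 were shared with another protein-coding gene: the strong peak of pk, the one at the 3′ end of Vang, and the fz summit near CG13482. With only the 19 unshared ones, 5 of 10 polarity genes held a summit, against 14.1% of all protein-coding genes under the same restriction. The background falls further than the count of polarity genes under this restriction, and the 5 polarity genes left (fz, stan, pk, ds and ft) are all at least 20 kb long, so the 2 figures do not compare genes of like length.

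Sequence at the summits was then examined for 7 motifs, searched on both strands in the 101 bp centred on each summit. The VP box was found at 1 of the 22 summits, the strong peak of pk inside Spn43Ab, starting 30 bp before the summit, against 2.34% of all optimal summits. The C/EBP site (TTACGCAA, TTACGTAA, TTGCGCAA or TTGCGTAA) matched the same bases there, because TTACGTAA counts for both motifs, against 1.96% of all summits. CAGCTG was also found once, in the same pk window, against 5.43%. GAGAG was found at 1 summit, in the first intron of fz, against 16.7% of all summits. The cyclic AMP response element TGACGTCA (0.421% of all summits), the DREF site TATCGATA (0.788%) and the E box CACGTG (1.12%) were found at 0 of 22. Each of these counts is 0 or 1 of 22, too few to set apart from the share of all summits.

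Allowing 1 mismatch to the VP box, a search added after the data were seen, gave 6 of 22 summits with a match: 3 at ds, 2 at fz and 1 at pk. The share among all optimal summits was 23.4%, and among those at genes of at least 20 kb it was 23.8%. The match in the ds upstream window shown above begins 30 bp before the summit on the plus strand.

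The summits of the polarity genes were rich in A and T. The share of G and C in the 101 bp windows had a median of 32.2%, from 24.8 to 62.4%, against a median of 40.6% over all 9264 windows and 39.6% over those at genes of at least 20 kb. It was below the median of all windows at 16 of the 22 summits. The highest peaks of fz and ds had 24.8 and 30.7%, and that of pk, in Spn43Ab, had 50.5%. No test was made, and summits of 1 gene share their surrounding sequence.

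**Figure D4:**
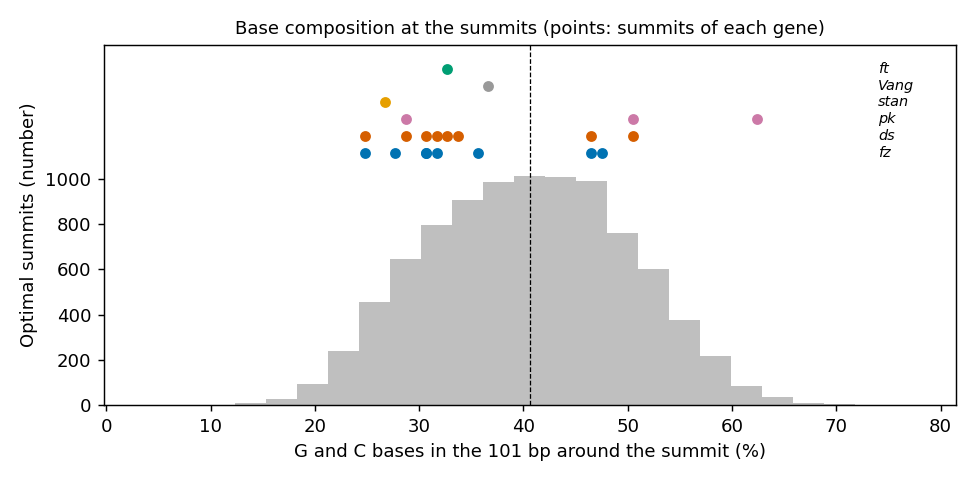
Percentage of G and C bases in the 101 bp around all 9264 optimal summits (grey histogram, dashed line at the median of 40.6%) and around the 22 summits of the polarity genes (points in 1 row per gene). Most points of fz and ds, and those of stan, Vang and ft, lie left of the dashed line.

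The rest of the pathway was taken from a list of 28 further genes, of which 27 were matched by symbol. The remaining one, listed as d, is dachs in the annotation, was left out of these counts and is given separately. Of these, 19 held an optimal summit in or within 1 kb of the gene, against 33.9% of all protein-coding genes. By length, 9 of 9 genes of at least 20 kb held one, against 64.3%, and 4 of 9 genes under 5 kb, against 26.5%. The rest lie between these lengths, where 49.2% (5 to 10 kb) and 58.9% (10 to 20 kb) of all genes held one. Counting unshared summits only, 14 of the 27 genes held one, against 14.1%, with no account of length. These counts are small, no test was made, and the list was chosen with earlier results of these data known. A summit within 1 kb of a start site was found for 14 of the 27, against 27.5% of all genes and 45.7% of genes of at least 20 kb. Of the 27, 9 were of that length. The 27 genes held 85 summits.

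Among the 12 effector and hair genes 9 held a summit, against 33.9% of all protein-coding genes, with no account of length. The group mixes genes under 5 kb, where the share of all genes was 26.5%, with genes of at least 20 kb, where it was 64.3%. The highest peak was at gish, which encodes a casein kinase 1 of the gamma type, with 7.52, 5.20 and 7.94 in replicates 1, 2 and 3 (6.89 ± 1.48, n = 3), 161 bp upstream of a start site at rank 55. It was above the ds peak in every replicate. fry, which acts with the kinase Tricornered in hair growth, had 3.38 ± 0.179, and msn, a kinase of the Ste20 family, had 2.87 ± 0.427 with 13 summits in the gene (n = 3 each). The myosin heavy and light chain genes zip and sqh had 2.47 ± 0.520 and 1.68 ± 0.690 (n = 3 each). frtz, a core effector, had 1.31 ± 0.314 (n = 3). The summit of frtz lies within 1 kb of starts of CG17660 and mRpL48. in and fy, the other effectors that act with frtz, and the kinase gene trc held none.

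In the branch of Fat and Dachsous 4 of 7 genes held a summit, against 33.9% of all protein-coding genes, with no account of length. Gug, the Atrophin corepressor that binds Fat, had 1.84, 1.24 and 2.43 (1.84 ± 0.594, n = 3) with 7 summits in the gene. app, a palmitoyltransferase downstream of Fat, had 1.59 ± 0.195, elgi, a ubiquitin ligase gene, had 1.30 ± 0.245, and dco, the casein kinase that phosphorylates Fat, had 1.15 ± 0.563 (n = 3 each). Dlish, lft and Fbxl7 held none. dachs, an unconventional myosin held in place by Fat and Dachsous, had 4 summits in 21.9 kb, and the highest, 375 bp from a start site, had 1.15, 1.95 and 1.08 in replicates 1, 2 and 3 (1.39 ± 0.483, n = 3). Counting it, which was decided after the data were seen, makes 20 of 28. The same summit lies within 1 kb of CheA29a.

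Of the 8 genes linked to the core or to Wnt signals, 6 held a summit, against 33.9% of all protein-coding genes, with no account of length. kermit, which encodes a PDZ-domain protein, had 4.76 ± 0.789 (n = 3), at a summit within 1 kb of a start of Lpin. fz2, the second Frizzled receptor, is of the length of fz (94.4 against 94.3 kb) and held 14 summits against 8. The highest of them had 1.86, 1.37 and 4.09 in replicates 1, 2 and 3 (2.44 ± 1.45, n = 3), overlapping the range at fz. Cul3, a ubiquitin ligase scaffold, had 2.05 ± 0.257 at a summit shared with yuri, and the kinase gene nmo had 1.80 ± 0.221 (n = 3 each). Nedd4 had 0.904 ± 0.328 and the ligand gene Wnt4 had 0.510 ± 0.296 (n = 3 each), both below or near the median optimal peak. wg and CkIIalpha held none.

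**Figure D5:**
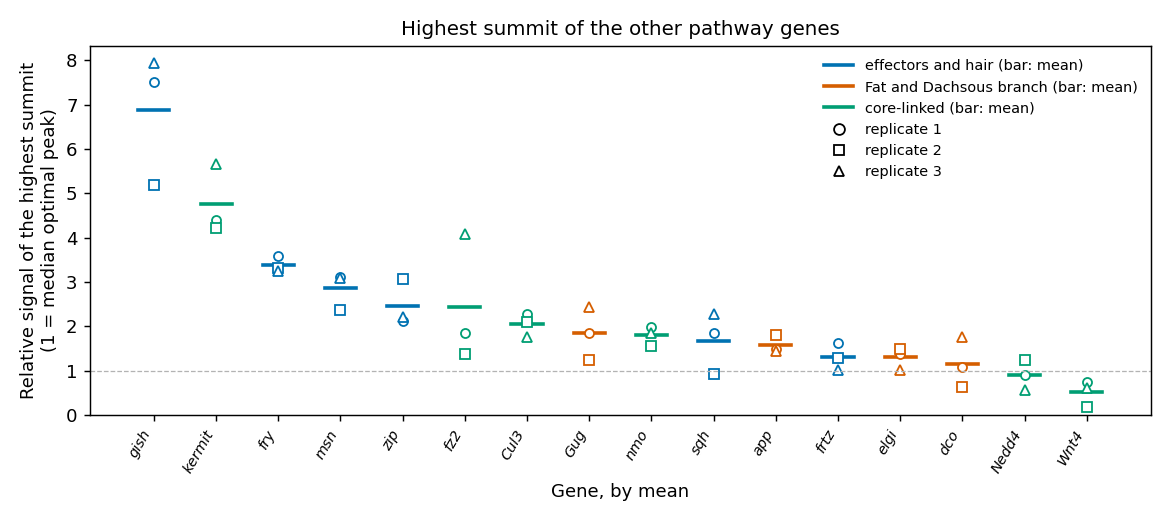
Relative signal (1 is the median optimal peak) of the highest summit at 16 of the 19 further pathway genes that held one, ordered by mean and coloured by group. Symbols are single replicates and bars are means. gish and kermit stand above 4 in every replicate, and Wnt4 is below 1 in each.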

How the data were processed

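The files are narrowPeak lists on dm6 of 3 biological replicates, of all replicates pooled, and of optimal peaks. Per the depositors' notes, the replicate and pooled lists derive from alignments plus another file from which control-normalised tracks were also made, and were the input of an irreproducible discovery rate step that gave the optimal list. Its threshold, the peak caller and the aligner: not given in the sources used here. The signal of each entry is the value the authors deposited and is not scaled between libraries. It was divided by the replicate's median over the optimal peaks, taking the highest entry that overlaps a peak by at least 1 bp. The lists hold no read counts, so sequencing depth is unknown and intervals for counting error are left out. Lists on dm3 were not used here.

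Genes and start sites came from Ensembl release 115 (BDGP6) and bases from RefSeq Release 6, and 0 entries ended beyond an arm. Coordinates are 1-based. All 10 members were named with every optimal summit, or with their highest pooled entry, and the 27 further pathway genes matched by symbol, except 3 whose values are not reported here, though the counts include them. The members and lists were chosen with earlier results of these data known. There is 1 group, so counts and values are descriptions without a test. Alternatives varied the window, the threshold, the replicates, the overlap, the divisor and the motif window. Assignment, overlap and motif steps were tested on simulated data. Python 3.11.15 with NumPy 2.4.6, pandas 2.3.3, SciPy 1.17.1 and matplotlib 3.10.9 was used.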

Additional observations from a re-analysis of the deposited data

How the results depend on the processing

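The count of 6 polarity genes with a summit was 4 with summits in the gene itself, 6 with a window of 2 kb, 6 among the stronger 50% of optimal peaks and 5 with unshared summits. It was 2 with summits within 1 kb of a start site. Among the stronger 50% of peaks, 11 of the 22 summits stayed, by construction fewer. The share of all genes, 33.9%, was 18.8% with summits in the gene itself, 39.9% with a window of 2 kb, 23.9% among the stronger 50% of peaks, 27.5% with summits within 1 kb of a start site and 14.1% with unshared summits. The VP box count of 1 was 0 within 25 bp of the summit and 6 with 1 mismatch allowed. Requiring support from the highest entries of both other replicates left 5 to 6 genes and 17 to 18 summits. The share of all genes was then 28.4% without replicate 1, 29.9% without replicate 2 and 29.3% without replicate 3. With another divisor or a match by summit distance, the highest peak of each of the 6 genes moved by less than 1 SD in 12 of 12 values. No paired analysis was possible because there is 1 group. With 3 libraries of unknown depth and no mock library analysed here, weak summits near the threshold are the least certain.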
